A study of Mus musculus with 8 samples.

Results

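The stretch of mouse chromosome 6 from 122545000 to 122710000 (build mm9) holds the genes Gdf3, Dppa3 and Nanog and the sequence between them. Its members here are all CpGs that the deposited files list in that interval. They number 87 of 1026288 CpGs listed on the standard chromosomes in any library, and 35 of the 622768 listed in all 8 libraries. The interval was chosen by gene and, in part, selected on its measured methylation, for a large difference with L-proline at the place called site 6 below. L-proline differences are therefore given as a description, with no test.

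DNA methylation was measured by reduced representation bisulfite sequencing (RRBS) in embryonic stem cells of the mouse strain 129/SvP. RRBS reads fragments cut at CCGG sequences after bisulfite treatment, which leaves methylated cytosines as C, and it cannot tell 5-methylcytosine from 5-hydroxymethylcytosine. All groups were plated sparsely in medium with fetal bovine serum and LIF (leukaemia inhibitory factor), a cytokine that keeps these cells self-renewing. The groups were untreated cells, cells given 1 mM L-proline, cells given 500 µM vitamin C and cells given both, each collected on day 2 and on day 5. There was 1 library for each treatment and day. The labels name no cell line, clone, culture or batch, so a difference between 2 libraries cannot be told apart from a difference between 2 cultures.

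Nanog is a homeodomain transcription factor of the pluripotency network, and its level varies between embryonic stem cells grown in serum. Dppa3, also called Stella, is a maternal-effect protein of the oocyte and early embryo that embryonic stem cells also express. Gdf3 is a secreted ligand of the TGF-β family. Nanog is known to be controlled from its promoter and from distal enhancers upstream of it. Methyl groups on CpGs are added by DNMT enzymes and oxidised by TET enzymes, whose activity vitamin C is known to enhance. The title of the series frames vitamin C and L-proline as antagonists along a continuum of pluripotent states, so the question for this stretch was how the methylation of its CpGs differed with each supplement, with both, and with time.

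In the RefSeq table of build GRCm38.p6 the genes lie in the order Gdf3, Dppa3, Nanog, with Apobec1 before Gdf3 and Slc2a3 after Nanog. No annotation or genome of build mm9 was used here, so no CpG below is assigned to a promoter, exon, intron or enhancer, and sites are named by position. Of the 3 genes, only Nanog has an entry in the RefSeq promoter table. The 250 bases before its first listed start (GRCm38.p6, chr6:122707239-122707488, + strand) are shown because they tell which CpGs the promoter offers to the assay; the capitals mark every CpG.

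Nanog promoter: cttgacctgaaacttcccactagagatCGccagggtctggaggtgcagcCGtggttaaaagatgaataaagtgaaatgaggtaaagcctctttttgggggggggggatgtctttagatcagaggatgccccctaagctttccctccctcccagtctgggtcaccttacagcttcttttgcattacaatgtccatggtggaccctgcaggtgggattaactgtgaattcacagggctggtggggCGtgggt

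These letters hold 3 CpGs, at bases 28, 50 and 244, and 0 copies of CCGG, the motif at which RRBS fragments are cut (the motif is its own reverse complement). Of 32851 such 250-base stretches in the table, 47.1% hold at least 1 CCGG, and the median stretch holds 6 CpGs. Copies of CCGG outside the stretch, from which fragments could also reach it, were not looked for. No 3 CpGs listed in the interval have the spacing of these 3. A promoter with fewer than 3 of its CpGs listed would also give no match. The spacing therefore does not tell whether CpGs of this promoter are among the values below.

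The 35 CpGs fell into 10 sites, defined as runs of CpGs at most 500 bp apart. Site 1 spans positions 122545945 to 122545966 (3 CpGs), site 2 spans 122559518 to 122559625 (6), site 3 spans 122578672 to 122578701 (5), site 4 spans 122583429 to 122583474 (3) and site 5 spans 122590982 to 122591053 (5). Site 6, the one that helped choose the interval, spans 122617585 to 122617640 (3 CpGs). Site 7 spans 122652882 to 122653085 (4), site 8 is the single CpG at 122675091, site 9 spans 122680002 to 122680043 (4) and site 10 is the single CpG at 122696942. The longest stretch without such a CpG, 35.2 kb, lies between sites 6 and 7. CpGs of 1 site are often read by the same fragments and are not independent of each other.

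**Figure D1:**
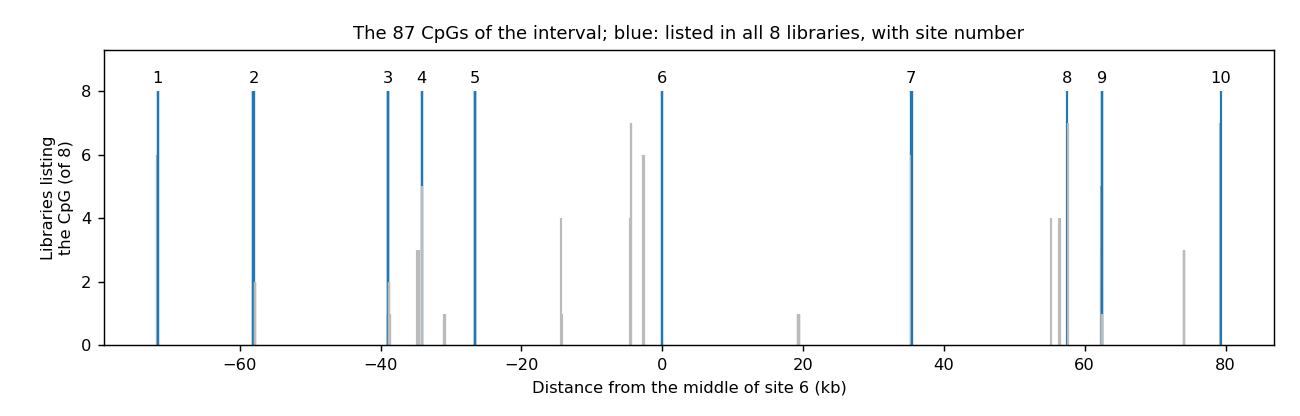
Position of the 87 CpGs, as distance in kb from the middle of site 6, against the number of libraries (of 8) that list each. Blue lines are the 35 CpGs listed in all 8 libraries, with their site number above, and grey lines are the other 52.

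Between 762041 and 1006832 CpGs were listed per library, each at a minimum of 10 reads. At the 35 CpGs the median coverage ran from 26 reads with both supplements on day 5 to 46 reads with L-proline on day 5 and with both on day 2, and single values rest on 10 to 131 reads. The 95% Wilson intervals below cover counting error only and take each read as independent. Reads amplified by PCR can come from 1 molecule, which would make the intervals too narrow. No removal of such copies is named in the sources used here. Apparent methylation of the lambda contig was 0.195% to 0.513%. Around the bounds of the interval, the nearest CpGs of the common set were 122541234 outside and 122545945 inside at the start, and 122696942 inside and 122711296 outside at the end. The first of these ranged from 0% to 87.5% over the 8 libraries, the second from 15.4% to 67.4%, the third from 80% to 100% and the last from 0% to 5.56%.

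Methylation differed widely along the interval. Averaged over the 8 libraries, 13 of the 35 CpGs were under 5% methylated, 17 were at 20 to 80% and 5 were at 80% or above. Over the genome the same shares were 68.9% under 5%, 12.96% at 20 to 80% and 12.6% at 80% or above, against 37.1%, 48.6% and 14.3% here. All 13 CpGs under 5% belonged to sites 2, 4 and 7.

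**Figure D2:**
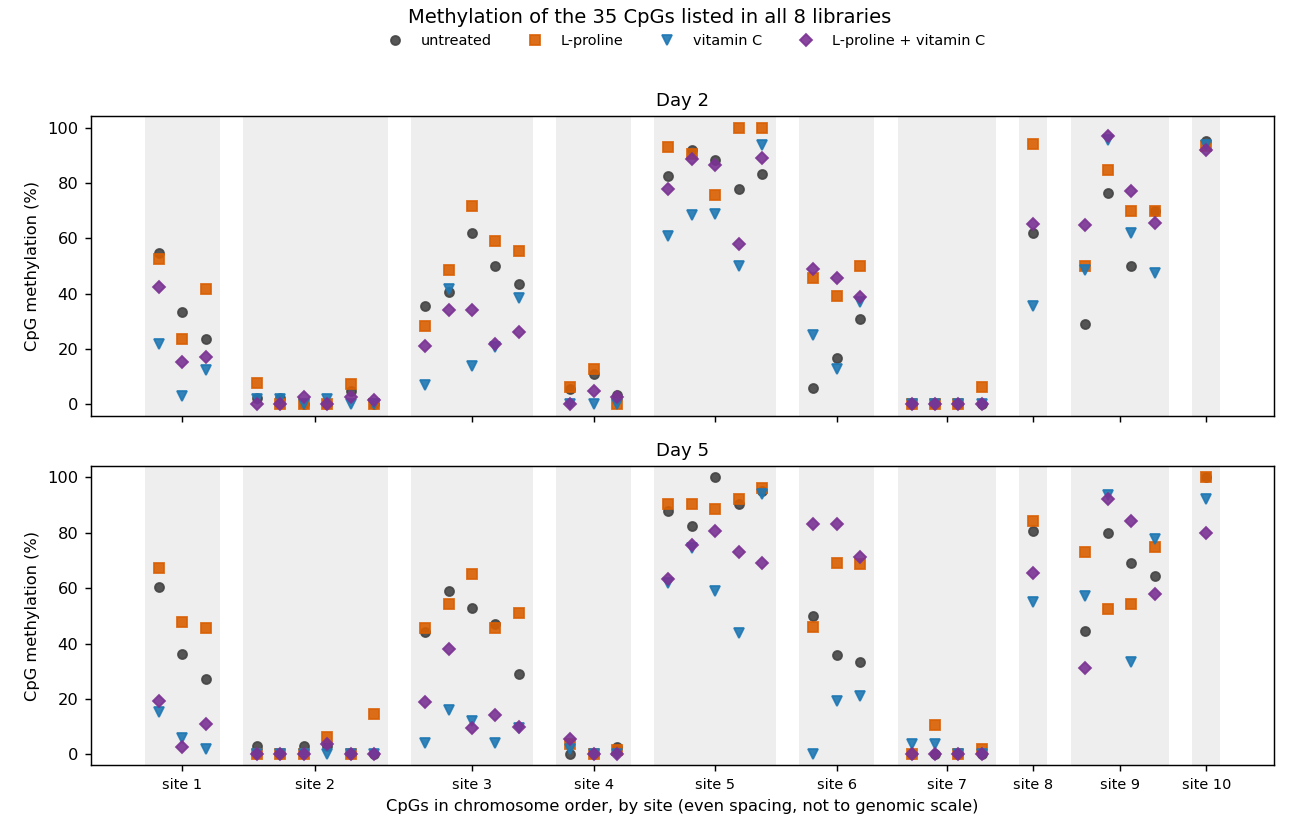
Methylation of each of the 35 CpGs in percent, on day 2 (top) and day 5 (bottom), by treatment; CpGs are in chromosome order, evenly spaced and shaded by site. The CpGs of sites 2, 4 and 7 lie between 0% and 14.7% in all libraries, most values of sites 1 and 3 are lower with vitamin C than without it, and site 6 has high values with L-proline.

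The mean over the 35 CpGs was lower with vitamin C than without it in each matched pair. On day 2 it was 35.2% in untreated cells, 42.2% with L-proline, 27.6% with vitamin C and 34.9% with both. On day 5 it was 39.5% in untreated cells, 44.1% with L-proline, 24.6% with vitamin C and 32.7% with both. The difference with vitamin C averaged -10.3 ± 3.56 percentage points (SD, n = 4 pairs), and the difference with L-proline 6.75 ± 1.53 points. Over the 32 CpGs outside site 6, which helped choose the interval, these were -11.2 ± 3.18 and 4.24 ± 1.67 points. Over the 622768 CpGs of the genome these were -4.14 ± 1.82 and 2.05 ± 0.565 points. The median over CpGs was -3.66 points with vitamin C in the interval and -0.568 over the genome, and with L-proline 3.89 and 0.265. Outside site 6 the interval's medians were -5.93 and 2.48 points. More of the genome set than of the interval was under 5% methylated, as given above, so the 2 sets are not compared at like levels. No p is given for these means, because the interval was chosen with results of these data known.

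Site 1 lost methylation with vitamin C. Untreated cells were methylated there at 37.3% on day 2 and 41.4% on day 5, and cells given L-proline at 39.4% and 53.6%. With vitamin C the values were 12.5% (alone) and 25.0% (both supplements) on day 2, and 7.74% and 11.1% on day 5. All 4 libraries with vitamin C lay below all 4 without it. The mean matched difference was -28.8 ± 12.1 points, with -14.4 points on day 2 in the presence of L-proline as the smallest and -42.5 points on day 5 in its presence as the largest. Its first CpG, 122545945, went from 60.6% (20 of 33 reads, interval 43.7 to 75.3) in untreated cells on day 5 to 15.4% (8 of 52 reads, interval 8.01 to 27.5) with vitamin C. The middle CpG, 122545960, was at 36.4% and 5.77% in the same libraries, and the last, 122545966, at 27.3% and 1.96%. In the limma fit to 1 kb tiles over the genome, described under the processing, the tile from 122545001 to 122546000 had a log2 coefficient of -2.25 ± 0.43 (SE) for the ratio of methylated to unmethylated reads (adjusted p = 0.0111).

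Site 3 showed a loss of similar size. In untreated cells it was methylated at 46.4% on day 2 and 47.5% on day 5, and with L-proline at 52.6% and 52.4%. With vitamin C it was methylated at 24.2% on day 2 and 9.09% on day 5, and with both supplements at 27.6% and 18.3%. Again the groups with and without vitamin C did not overlap. The mean matched difference was -29.9 ± 7.60 points, and the limma coefficient of the tile from 122578001 to 122579000 was -2.06 ± 0.40 (adjusted p = 0.0111).

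The 5 CpGs of site 3 lie within 30 bp and did not share 1 level. The CpG at 122578684 had the largest loss of the interval, -45.6 ± 7.97 points. It was methylated at 61.9% (26 of 42 reads) in untreated cells and 14.0% (6 of 43) with vitamin C on day 2. On day 5 it was at 65.2% (30 of 46 reads) with L-proline and 9.52% (2 of 21) with both. The CpG at 122578675, 9 bp before it, had the smallest mean difference of the site, -18.1 ± 18.3 points. That CpG was at 40.5% in untreated cells and 41.9% with vitamin C on day 2, and at 58.8% and 16% on day 5.

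Site 5 was highly methylated and also lost methylation with vitamin C. Untreated cells were at 86.2% on day 2 and 88.6% on day 5, and cells given L-proline at 91.7% and 90.9%. Vitamin C alone gave 66.9% and 67.5%, and both supplements gave 81.3% and 71.6%. The groups did not overlap, and the mean matched difference was -17.5 ± 4.83 points. Its last 3 CpGs form the tile from 122591001 to 122592000, with a limma coefficient of -1.85 ± 0.43 (adjusted p = 0.0147). The CpG at 122591048 differed most, by -33.99 ± 12.7 points, from 77.8% (14 of 18 reads) to 50% (8 of 16) on day 2 and from 90.5% (19 of 21) to 43.8% (7 of 16) on day 5 without L-proline. The CpG at 122591053, only 5 bp further, differed least, by -7.18 ± 15.8 points, and was at 94.1% with vitamin C on day 5.

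Sites 8 and 10 are single CpGs, fewer than the tile fit requires. Site 8 was methylated at 61.9% in untreated cells, 94.1% with L-proline, 35.7% with vitamin C and 65.3% with both on day 2. On day 5 the values were 80.6%, 84.2%, 55.2% and 65.5% in the same order. The values with and without vitamin C overlapped through the untreated library of day 2, and the 4 matched differences averaged -24.8 ± 4.31 points. They rest on 14 to 49 reads, and Fisher's exact test called none of them. On day 2 the Wilson intervals were 40.9 to 79.2% in untreated cells and 16.3 to 61.2% with vitamin C. The SD is narrow beside these intervals, so it does not show how well the pairs match. Site 10 was at 91.9% to 95.2% on day 2 in all treatments. On day 5 it was at 100% in untreated cells and with L-proline, 92.3% (12 of 13 reads) with vitamin C and 80% (12 of 15) with both, and its mean matched difference of -7.66 ± 8.74 points was smaller than its SD.

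Sites 2, 4 and 7 held little methylation in any library. Site 2 ranged from 0% to 2.58% and site 7 from 0% to 2.9%. With vitamin C on day 5, site 2 had 0 methylated of 226 CpG reads, which allows a level of up to 1.33% (3 counts of the total), while the Wilson interval reaches 1.67%. Site 7 was at 0% in untreated cells on both days, where 3 counts of the total are 2.29% and 2.70% and the Wilson intervals reach 2.85% and 3.35%. The tile of site 2, from 122559001 to 122560000, had a limma adjusted p of 0.0443, but its difference of -1.29 ± 0.557 points was under the 10 points required for a call. Site 4 was at 6.47% in untreated cells and 6.16% with L-proline on day 2, at 0% with vitamin C on that day, and at 0.559% to 2.51% in the other 5 libraries. The CpG at 122583453 held most of it, with 10.9% in untreated cells and 12.8% with L-proline on day 2, and it was at 0% in all 4 libraries of day 5. The tile of site 4 did not pass (limma adjusted p = 0.0931). Centring the libraries to one median raises the vitamin C coefficient of every tile by the same amount, so any coefficient nearer to 0 than that amount turns positive. These 2 tiles did, at 0.26 and 0.32, and the turn is not specific to them. The highest single value in the 3 sites was 14.7% (5 of 34 reads, interval 6.45 to 30.1) at 122559625 with L-proline on day 5, and that CpG was at 0% to 1.56% in the other 7 libraries. In site 7 the CpG at 122653024 was at 0% in all 8 libraries, and 122653085 reached 6.38% (3 of 47 reads) with L-proline on day 2.

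Site 6 showed no shared direction with vitamin C. On day 2 it was methylated at 16.7% in untreated cells and 21.8% with vitamin C, and at 43.8% with L-proline and 44.9% with both. On day 5 it was at 38.0% in untreated cells, 16.1% with vitamin C, 63.8% with L-proline and 80% with both. The differences with vitamin C were therefore 5.13 and 1.19 points on day 2, and -21.9 points without and 16.2 points with L-proline on day 5. Their mean was 0.163 ± 16.01 points, and the limma coefficient of the tile from 122617001 to 122618000 was 0.00 ± 0.49 (adjusted p = 0.996). A p this large does not show that vitamin C left the site as it was. The mean was 7.51 points without the untreated or the vitamin C library of day 5, and -5.19 points without the library of L-proline or of both on that day.

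**Figure D3:**
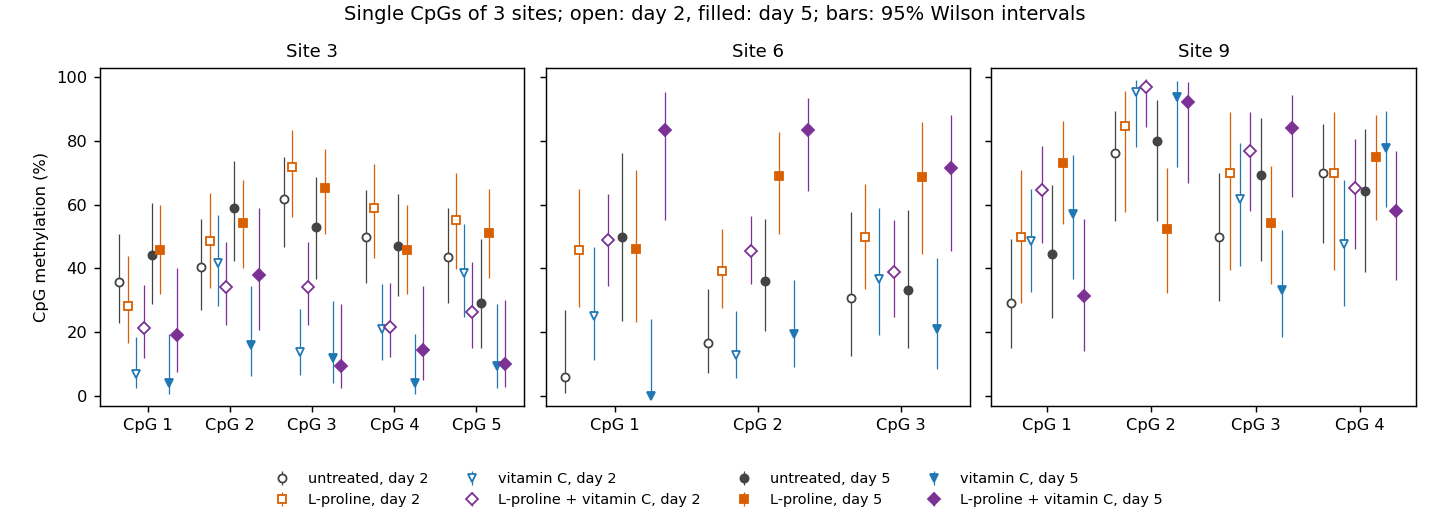
Methylation in percent of the single CpGs of sites 3, 6 and 9 in all 8 libraries, in chromosome order within each site; open symbols are day 2, filled symbols day 5, and bars are 95% Wilson intervals. In site 3 the vitamin C symbols of day 5 lie below 20%, and in site 6 the L-proline plus vitamin C symbols of day 5 lie above 70%.

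The 3 CpGs of site 6 lie within 56 bp. The deepest, 122617624 (24 to 79 reads), was at 16.7% (5 of 30 reads) in untreated cells and 39.3% (22 of 56) with L-proline on day 2. On day 5 it was at 36.0% (9 of 25) and 69.0% (20 of 29). With vitamin C it was at 12.8% and 19.4% on the 2 days, and with both supplements at 45.6% (36 of 79) and 83.3% (20 of 24, interval 64.1 to 93.3). Every library with L-proline lay above every library without it at this CpG, which belongs to the site that helped choose the interval. The last CpG, 122617640, was likewise higher with L-proline in all 4 pairs, by 26.8 ± 20.8 points. The first, 122617585, was higher in 3 of 4 pairs. It was at 50% (5 of 10 reads) in untreated cells and 46.2% (6 of 13) with L-proline on day 5, and at 0% (0 of 12) with vitamin C and 83.3% (10 of 12) with both. With 12 reads, a count of 0 still leaves an interval reaching 24.2%.

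Site 9 held intermediate to high methylation and did not lose it with vitamin C. On day 2 it was methylated at 55.3% in untreated cells, 66.7% with L-proline, 61.9% with vitamin C and 76.3% with both. On day 5 the 4 treatments lay between 62.6% and 65.7%. The mean matched difference was 4.23 ± 4.70 points, and the limma coefficient of the tile from 122680001 to 122681000 was 0.28 ± 0.37 (adjusted p = 0.567). With the same shift by centring it was 1.73 (adjusted p = 0.0298), still under the 10 points required for a call. Its CpGs lie within 42 bp but differed by up to 61.1 points from each other in 1 library. The CpG at 122680024, named after its values were seen, was the only one of the 35 that was higher with vitamin C in all 4 pairs, by 21.3 ± 12.8 points. It was at 76.2% to 84.6% without and 95.5% to 96.9% with vitamin C on day 2, and at 52.4% to 80% and 92.3% to 93.8% on day 5. Fisher's exact test called it in no pair. The CpG at 122680043 differed by -7.65 ± 15.9 points and that at 122680035 by 3.24 ± 27.9 points, both less than their SD.

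The tile fit tested 7 tiles of the interval and called 3 lower with vitamin C, those of sites 1, 3 and 5, against 23.2% of 50167 tiles over the genome. It called 0 higher, against 0.0% over the genome, and 5 of the 7 had an unadjusted p under 0.05, a cutoff for which no genome share was counted. The median difference over the 7 tiles was -2.65 points, and over all tiles -5.07 points. With a quasi-binomial model, or with all libraries centred to one median, 0 of the 7 were called. In the order of sites 1, 3 and 5, the quasi-binomial coefficients were close to those of limma, at -2.17, -1.90 and -1.89. The centred coefficients were smaller, at -0.80, -0.61 and -0.40, since centring sets each tile against the median of all tiles. The unadjusted p was under 0.05 for 4 and 2 tiles in those fits. In the same order of sites the adjusted p was 0.0753, 0.0623 and 0.0713 in the first and 0.152, 0.237 and 0.526 in the second.

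Fisher's exact test compared single pairs of libraries, not conditions, at each of the 35 CpGs. It called 14 losses with vitamin C, at 10 distinct CpGs, all in sites 1, 3 and 5. On day 2 it called 1 CpG against untreated cells, 122578684 (-47.95 points, adjusted p = 0.00403), where 0.487% of CpGs over the genome were called lower. On the same day it called 1 CpG for both supplements against L-proline alone, 122591048 (-42.2 points, adjusted p = 0.00454), where the genome share was 0.608%. On day 5 it called 6 CpGs against untreated cells, all 3 of site 1 and 3 of site 3, where the genome share was 2.95%. For both supplements against L-proline alone on day 5 it called 6 CpGs, 3 of site 1, 2 of site 3 and 1 of site 5, where the genome share was 5.66%. No CpG of the interval was called higher in any of these 4 comparisons. Their counts of CpGs with an unadjusted p under 0.05 were 7, 7, 12 and 11 in the order given. No genome share was counted at that cutoff, so these counts have no background to set them against. A CpG near 0% cannot fall by the 20 points that a call needs. Of the genome set 68.9% was under 5% methylated, against 37.1% here. The genome shares of called CpGs are therefore not taken at like levels, and CpGs of 1 site share reads.

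**Figure D4:**
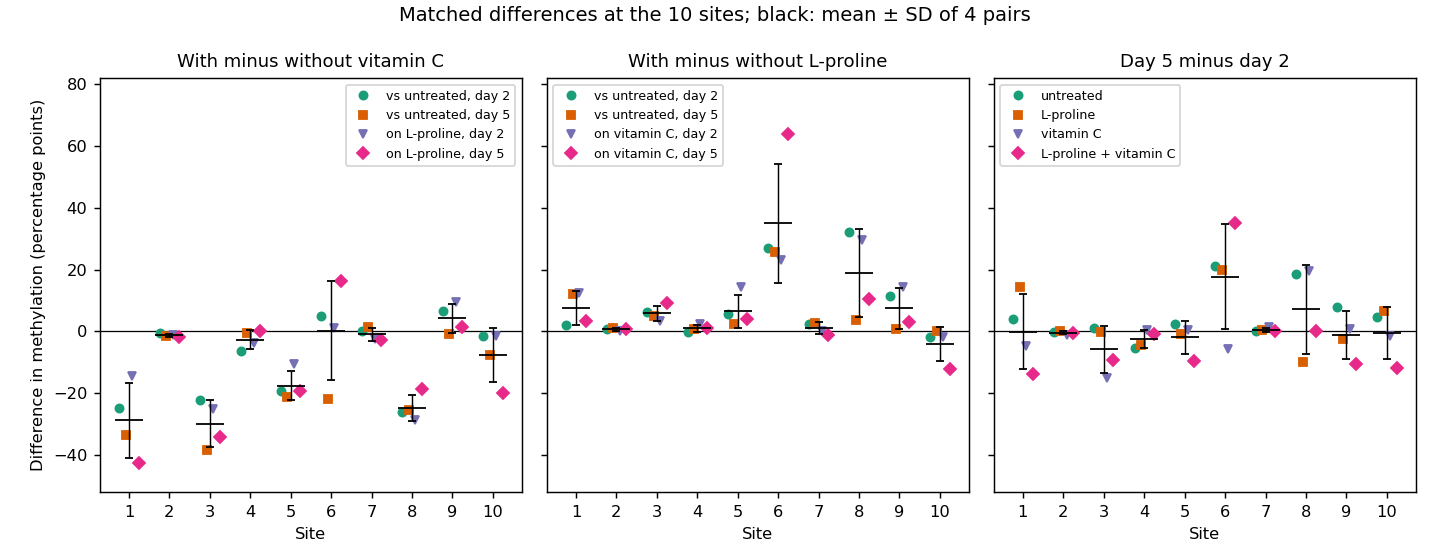
Differences in methylation, in percentage points, at the 10 sites for vitamin C, L-proline and day; each symbol is 1 matched pair of libraries and black marks are the mean ± SD of the 4 pairs. Sites 1, 2, 3, 5, 8 and 10 are below 0 in all 4 vitamin C pairs, site 2 by under 2 points, and site 6 is above 20 in all 4 L-proline pairs.

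Over single CpGs, 12 of the 35 (34.3%) were lower with vitamin C in all 4 pairs, against 13.96% over the genome, and 1 was higher in all 4, against 0.174%. The 12 comprised all 3 of site 1, 4 of 5 in site 3, 3 of 5 in site 5 and the CpGs of sites 8 and 10. The genome set holds more CpGs under 5% methylation than the interval, as given above, so the 2 shares are not taken at like levels.

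L-proline differences were largest at site 6, which chose the interval, at 27.1 and 23.1 points on day 2 without and with vitamin C and 25.8 and 63.9 points on day 5. Their mean was 34.97 ± 19.3 points. Without the pair of both supplements against vitamin C on day 5, the lowest mean left was 25.3 points. The other sites share that contrast and those libraries, so they too are described only. Site 8 followed with 18.9 ± 14.1 points, at 32.2 and 29.6 points on day 2 but 3.57 and 10.3 points on day 5. Site 1 had 7.54 ± 5.59 points, site 9 had 7.42 ± 6.50, site 5 had 6.56 ± 5.38 and site 3 had 5.92 ± 2.46, each higher with L-proline in 4 of 4 pairs. Site 10, close to full methylation, had -4.02 ± 5.60 points. Of the 35 CpGs, 6 were higher with L-proline in all 4 pairs, 2 of them in site 6. Of the 32 CpGs outside site 6, 4 were higher in all 4 pairs (12.5%, against 6.90% over the genome) and 0 were lower in all 4 (against 0.511%). These shares too are not taken at like levels of methylation.

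With both supplements the interval held values on either side of those of untreated cells. At sites 1, 3 and 5 the combination lay between vitamin C alone and untreated cells on both days. The day 5 values were 11.1%, 18.3% and 71.6%, against 7.74%, 9.09% and 67.5% with vitamin C alone and 41.4%, 47.5% and 88.6% in untreated cells. Those of day 2 were 25.0%, 27.6% and 81.3%, against 12.5%, 24.2% and 66.9% with vitamin C alone and 37.3%, 46.4% and 86.2% in untreated cells, so that site 5 was then nearer to untreated cells. At site 6 on day 5 it gave 80% (interval 66.96 to 88.8), above L-proline alone (63.8%, interval 50.9 to 74.95) and above vitamin C alone (16.1%, interval 9.0 to 27.2). The intervals of the combination and of L-proline alone overlapped. Site intervals count each CpG read once, although 1 fragment can cover several CpGs, so they are too narrow.

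From day 2 to day 5 the mean over the 35 CpGs differed by 4.28 points in untreated cells, 1.82 with L-proline, -2.99 with vitamin C and -2.16 with both, on average 0.236 ± 3.42 points. Outside site 6 the average was -1.19 ± 3.56 points. Over the 622768 CpGs of the genome the differences were 2.19, 2.71, -0.708 and -0.432 points in the same order of treatments. The limma fit called 0 of the 7 tiles for day, against 0.0% over the genome, and 1 had an unadjusted p under 0.05. That tile was the one of site 6, which was higher on day 5 by 21.3 points in untreated cells, 20.04 with L-proline and 35.1 with both, and lower by 5.67 with vitamin C alone, where the signed difference was -5.67 (limma adjusted p = 0.654). Fisher's exact test called 0 of the 35 CpGs between days in untreated cells, where 0.123% of CpGs over the genome were called in either direction, and 0 with L-proline (0.892%), vitamin C (0.105%) and both (0.0222%). At an unadjusted p under 0.05 there were 2, 3, 3 and 6 CpGs, with no genome share counted at that cutoff for CpGs or tiles. At site 3 the values with vitamin C were 24.2% on day 2 and 9.09% on day 5, while those of untreated cells were 46.4% and 47.5%. Of the 35 CpGs, 3 were lower on day 5 in all 4 treatments (8.57%, against 1.11% over the genome), all in site 3, where neighbours share reads. The CpG 122617624 of site 6 was the 1 that was higher in all 4 (2.86%, against 3.25%). The interval and the genome are not compared at like levels of methylation in these shares either.

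The other 52 CpGs were listed in 1 to 7 libraries and entered no test. Of the 20 listed in a single library, 14 were in the library of both supplements on day 2, which listed the most CpGs. Before site 1, the CpGs at 122545879 and 122545890 were listed in 6 libraries. Together they were at 30% to 50% in the 3 listed libraries without vitamin C and at 2.50% to 14.8% in the 3 with it, in the direction of the site itself. Before site 4, 3 CpGs from 122582847 to 122582993 were at 87.5% in untreated cells on day 5 and at 50% and 45.2% with both supplements on day 2 and day 5. These CpGs did not differ alike on day 5. In untreated cells and with both, 122582983 was at 81.8% (9 of 11 reads) and 80% (8 of 10). The CpG at 122582993 was at 100% (11 of 11) and 20% (2 of 10), and 122582847 at 80% (8 of 10) and 36.4% (4 of 11). The CpG at 122603275 was at 76.2% (16 of 21 reads) in untreated cells on day 5, at 28.6% (4 of 14) with vitamin C and at 27.3% (3 of 11) with both. With both on day 2 it was at 36.1% (13 of 36). The CpGs at 122673955 and 122674045 were at 96.0% and 96.9% with L-proline on day 2 and day 5. With both supplements they were at 71.4% on day 2 and 72.7% (1 CpG listed) on day 5. Untreated cells on day 5 were at 70% there (1 CpG listed). Some other partly listed CpGs had values with vitamin C that were higher or nearly the same. The CpG at 122696823 was at 73.3% in untreated cells, 84.0% with vitamin C, 88.9% with L-proline and 89.5% with both on day 5. The CpG at 122672815 was at 73.1% in untreated cells and 72.2% with vitamin C on day 5, and at 86.7% with vitamin C on day 2. In site 7's stretch, 122652990 was at 18.8% (3 of 16 reads) with vitamin C on day 2 and at 0% in the other 5 libraries that listed it.

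Nearest to site 6, the CpGs at 122614906 and 122614951 were listed in 6 libraries. Together they were methylated at 1.52% in untreated cells, 6.67% with vitamin C, 11.9% with L-proline and 15.3% with both on day 2, and at 3.23% with vitamin C and 29.2% with L-proline on day 5. The 3 listed libraries with L-proline were the highest, with 24 to 72 CpG reads each. At 122614951 on day 2, L-proline gave 14.3% (3 of 21 reads) and vitamin C 13.3% (2 of 15). With L-proline on day 5 that CpG was at 50% (6 of 12 reads). Untreated cells and both supplements were not listed on day 5. The 3 CpGs from 122613034 to 122613183 were at 0% to 13.9%, and there the highest library was that of untreated cells on day 5. Beside site 8, the CpG at 122675225 was at 93.9% to 96.3% in the 3 listed libraries without vitamin C and at 75.0% to 90.9% in the 4 with it. A run of 4 CpGs from 122691683 to 122691724 was at 0% to 2.38% in the 3 libraries that listed it. It lies between site 9, whose mean was 64.5%, and site 10, whose mean was 93.3%.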

How the data were processed

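CpG methylation was measured by RRBS in 8 libraries, 1 for each of 4 treatments on 2 days, assigned from the titles. The submitters' processing notes name CASAVA, BSMAP 2.88 and mm9, without their roles; other steps are not given in the sources used here. The authors deposited, for each CpG with at least 10 reads, the fraction of reads methylated (0 to 1) and, in another column, a text entry with the coverage in reads, whole for 99.3% to 99.6% of CpGs. Methylated reads were taken as coverage times fraction, rounded. Positions are the end column of the deposited intervals.

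Site values are percentages of pooled reads; means over the interval are means of CpG percentages. Reads were summed in 1 kb tiles with at least 3 CpGs over the genome. The log2 of (methylated + 1)/(unmethylated + 1) was fitted in limma 3.58.1 (R 4.3.3), with day, L-proline and vitamin C as additive terms, leaving 4 residual degrees of freedom. With 1 library per treatment and day, the residual spread is the departure from additivity across the 8 libraries. The SE and p of this fit therefore do not measure spread between replicate cultures. Calls needed a p under 0.05 after Benjamini-Hochberg adjustment over all tiles and a difference of at least 10 points. Two-sided Fisher tests used 8 pairs of libraries, adjusted over all 622768 CpGs, with a minimum of 20 points. Both procedures were tested on simulated data. All sites and tested tiles are named. Where a site has over 3 CpGs, those with the largest vitamin C loss, the largest L-proline gain and the smallest change are named. Other genes of the pluripotency network were not used here, since no mm9 annotation was given. The members and lists were chosen with earlier results of these data known.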

Additional observations from a re-analysis of the deposited data

Results flagged for a closer look

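The day differences below had opposite signs with and without 1 supplement, which drew attention to them. The search split the vitamin C, L-proline and day differences by each other factor, for the mean and for all 10 sites. Those below were all that met the rule, and how many would meet it with random signs was not tested. None of the contrasts below was tested, and each rests on 4 pairs of libraries. For the mean over the 35 CpGs, day 5 minus day 2 was 4.28 and 1.82 points without vitamin C and -2.99 and -2.16 points with it, a gap of -5.63 points. Over the 622768 CpGs of the genome the signs split in the same way, so this is not particular to the interval. The genome values were 2.19 and 2.71 points without and -0.708 and -0.432 points with vitamin C. Site 1 showed the same split, with 4.11 and 14.3 points without and -4.76 and -13.9 points with vitamin C, a gap of -18.5 points. At site 10 the differences were 4.76 and 6.67 points without and -1.44 and -11.9 points with vitamin C, a gap of -12.4 points on 13 to 37 reads. Split by L-proline, site 5 had 2.41 and 0.577 points without and -0.813 and -9.72 points with it, a gap of -6.76 points. Site 9 had 8.04 and 0.782 points without and -2.46 and -10.6 points with L-proline, a gap of -10.9 points.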

How the results depend on the processing

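With a minimum of 30 reads, 1 of 2 tiles left in the interval was called lower with vitamin C. The quasi-binomial model and the centring of libraries called 0 of 7; centring moves every tile by 1.45 on the log2 scale, so its coefficients are relative to that shift (stored as -1.45 for uncentred minus centred). Over the genome the calls were 11645 of 50167 tiles as reported, 30 of 49476 with the quasi-binomial model, which leaves out tiles fitted at 0 or 1, and 205 of 50167 with centring. With minimums of 20 and 30 reads they were 3115 of 26645 and 630 of 15382. Leaving out 1 library at a time gave 2 to 3 called tiles. The share of genome tiles called lower then ran from 5.30% (without both supplements on day 5) to 28.2% (without vitamin C on day 2). The tile of site 5 was lost without the day 5 library of untreated cells (limma adjusted p = 0.0556), of vitamin C (0.0536) or of both supplements (0.0544), and those of sites 1 and 3 were called in all 8 such fits. The coefficients of these 3 tiles were negative in each fit that tested them; the tile of site 5 was not tested at 20 or 30 reads, nor that of site 3 at 30 reads. Fisher calls against untreated cells were 0 on day 2 and 3 on day 5 with a minimum of 30 reads (8 CpGs left). Over the genome 651 and 3945 of 168765 CpGs were then called lower. For both supplements against L-proline on day 2, Fisher calls in the interval were 0 at 20 and 0 at 30 reads. The genome counts called lower there were 2368 of 348979 and 1224 of 168765. The mean vitamin C difference was -16.1 points at 30 reads and -11.3 to -8.78 points when 1 library was left out. The mean L-proline difference was 5.08 points at 30 reads, 4.70 over all CpGs listed in each library and 9.49 over pooled reads, 4.24 over CpGs outside site 6 (chosen after seeing the data), and 6.29 to 7.48 points when 1 library was left out. The mean day difference was -4.11 points over pooled reads and -1.11 to 1.31 points when 1 library was left out. Tiles of the interval called higher with vitamin C, and tiles called for day, numbered 0 in every fit run. Runs of CpGs in place of tiles, chosen after seeing the data, also called 3, of 8 tested. Over the genome 12335 of 44633 runs (27.6%) were called lower. Libraries were matched by supplement and day only; no block by replicate number was fitted, since the labels give none.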
